A study of Mus musculus with 6 samples.

Results

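RNA sequencing compared 4T1 cells that stably overexpress Limch1 (Limch1_OE, n = 3 libraries) with 4T1 cells that carry the empty vector (Vector, n = 3 libraries), and 65 genes are described here that lay at a clearly lower level in Limch1_OE and whose names fall outside a set of interferon-related and other name families. 4T1 is a mouse mammary carcinoma cell line, and Limch1 encodes a protein of the actomyosin cytoskeleton with calponin-homology and LIM domains. Per the labels, mouse Limch1 was cloned into the lentiviral vector PLVX-ires-neo, both groups were infected, and stable lines were selected with antibiotics from 48 h after infection. Both groups thus carry the vector and passed selection, and uninfected cells were not analysed here. Whether the 3 libraries of a group stem from separate cultures or infections is not in the labels, so p-values reflect the spread among these libraries alone, and that spread may be technical.

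The 65 genes were chosen on the same 6 libraries in which they are described. A gene qualified if it was autosomal and protein-coding, averaged at least 3 FPKM in Vector, had a ratio (Vector mean + 1)/(Limch1_OE mean + 1) of at least 2, and had every Vector library above every Limch1_OE library. FPKM are fragments normalised for transcript length and library size, summed here over the listed transcripts of a gene, and the ratio runs Vector over Limch1_OE, so a larger ratio means a lower level in Limch1_OE. Of 26094 genes listed, 8875 were autosomal, protein-coding and at 3 FPKM or more in Vector, and 166 of these (1.87%) met the values. Names that begin with Ifi, Oas, Gbp, Irf, Irg, Tgtp, Stat, Trim, Parp, Ly6, H2-, Slfn, Psm, Mx and similar, with 14 single names such as Isg15, Usp18 and B2m, took 101 of the 166 away and left 65. Because the values of this contrast selected the genes, their levels and ratios are a description and carry no test.

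Interferons are secreted proteins that signal through cell-surface receptors and Janus kinases to STAT and IRF transcription factors. Complexes of these factors bind interferon-stimulated response elements, short promoter sequences built from repeats of GAAA, and switch on genes that sense foreign nucleic acids, block viral replication, present antigen and tag proteins with the ubiquitin-like protein ISG15. Tumour cells can keep this programme active without infection.

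Filtering by name left some genes linked to that programme among the 65. A list of interferon-stimulated genes written for this comparison held 31 of the 65. It also held 77 other genes of the 11842 tested further on. The list was written with earlier results of these data known, so the 31 are a description and no independent evidence. RefSeq gives 4 of the 65 a synonym from a name family that was left out. Pml is also Trim19, Mndal is Ifi212, 9930111J21Rik2 is Irgb5, and Gm11127 carries the synonym H2-K1. The other 34 are not in that list, and include serpins, lipid handlers, keratin and membrane genes. They also include Gm43302 (ratio 6.39), which spans Gbp10 and Gbp6, as well as C130026I21Rik (ratio 5.49) and Gm11127. Absence from the list therefore does not place a gene outside the interferon programme. The 2 sets are described together below, by role, as genes that were lower in Limch1_OE, rather than as genes outside the interferon response.

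Promoter sequences are shown first because the share of genes with the response element core, which the rule did not use, is given for the 65 genes beside that of all other genes. These shares are counts with no test. RefSeq promoters (GRCm38.p6, 250 bases before to 50 after each annotated start) were matched by symbol for 51 of the 65 genes, and the response element core was searched on both strands as GAAA, any 2 bases, GAAA. It was found for 11 of the 51 genes (21.6%), for 44 of 80 matched genes left out by name (55%), and for 211 of 6965 other matched genes at 3 FPKM or more (3.03%). Of all 32851 promoters in the table, 3.44% held it. Within the 65 it was found for 8 of 27 matched genes of the interferon-stimulated list (29.6%) and for 3 of the 24 others (12.5%), namely Serpinb9, Gm11127 and Clec2d. A member had on average 1.47 promoters in the table and another gene 1.28, which gives members more sequence to search. Within the 65, the genes of the interferon-stimulated list had 1.67 promoters on average and the others 1.25. Their shares thus rest on unequal amounts of sequence.

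The 6 windows below are those in which the core lay closest before an annotated start. They are printed 5′ to 3′ on the strand of the gene in lower case, with every base of a core in capitals. A core that reads TTTC, 2 bases, TTTC lies on the opposite strand.
Apol9a, chr15:77411094-77411163, minus strand: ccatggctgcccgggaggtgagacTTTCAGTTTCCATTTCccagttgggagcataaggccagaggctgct
Apol9b, chr15:77729011-77729071, plus strand: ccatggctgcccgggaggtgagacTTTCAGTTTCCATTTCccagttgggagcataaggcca
Mndal, chr1:173880188-173880253, minus strand: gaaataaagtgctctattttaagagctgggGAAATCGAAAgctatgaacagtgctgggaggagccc
Serpinb9, chr13:33004465-33004534, plus strand: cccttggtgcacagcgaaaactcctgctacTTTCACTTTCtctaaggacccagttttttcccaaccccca
Tmem140, chr6:34863053-34863122, plus strand: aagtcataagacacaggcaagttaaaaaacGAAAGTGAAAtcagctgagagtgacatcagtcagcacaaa
Gm11127, chr17:36058400-36058469, minus strand: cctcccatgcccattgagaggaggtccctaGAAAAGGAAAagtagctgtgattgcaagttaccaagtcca

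The windows of Apol9a and Apol9b were identical over all 61 bases compared, and each holds 2 overlapping cores. Measured to the core's first base on the gene's strand, the core began 31 bases before the start in Apol9b, 36 in Mndal, 46 in Serpinb9, 53 in Apol9a, 63 in Tmem140 and 68 in Gm11127. In Tdrd7 and Clec2d it began 191 and 189 bases before the start. In Eif2ak2, 9930111J21Rik1 and Shisa5 it lay after the start, by 18, 26 and 32 bases. Not all of these starts are where the main listed transcripts begin. Mndal-209, at the start shown for Mndal, averaged 0.443 FPKM in Limch1_OE and 4.38 FPKM in Vector. Mndal-204, which begins 118 bases from that start, averaged 20.6 FPKM in Limch1_OE and 82.9 FPKM in Vector. Serpinb9-201, at the start shown for Serpinb9, had overlapping groups. Tdrd7-201 and Tdrd7-202 begin 64 and 6963 bases from the start used for Tdrd7. A match describes the letters in these windows and does not show that a factor binds there.

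Other motifs were counted in the same promoters. The STAT site TTCNNNGAA was found for 6 of 51 members (11.8%) and for 7.78% of the 6965 other matched genes at 3 FPKM or more. The AP-1 site TGANTCA was found for 9 members (17.6%) and 5.73% of those genes, and the E-box CACCTG for 13 members (25.5%) and 19.7% of them. The NF-kB site GGGA, any base, TTTCC was found for 1 member (1.96%) and 0.459% of them. Of all single promoters in the table, 8.3%, 7.81%, 20.2% and 0.411% held these motifs in the same order. Both strands were searched for each.

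**Figure D1:**
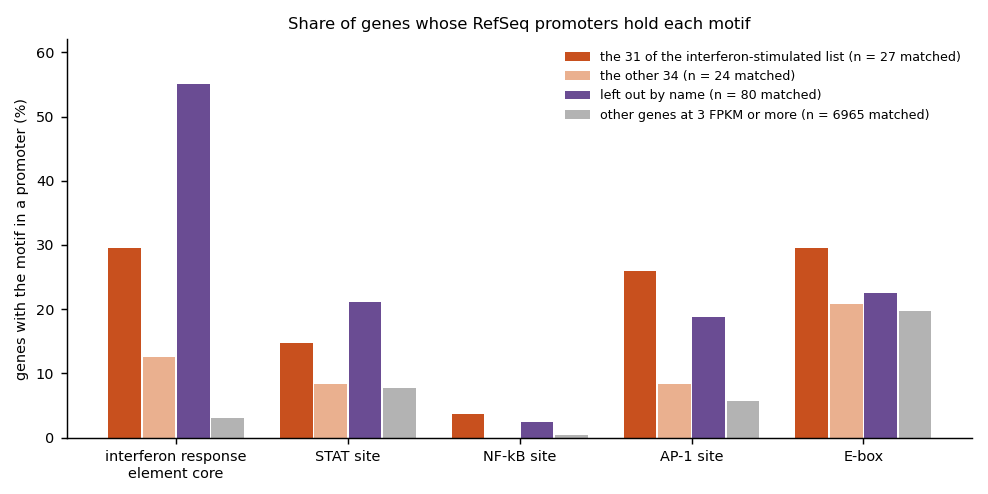
Share of genes (percent, y axis) with each of 5 motifs (x axis) in a RefSeq promoter, for the 31 genes of the interferon-stimulated list, the other 34, the genes left out by name and all other genes at 3 FPKM or more in Vector; n counts the genes matched to a promoter. The response element core was found for 29.6% of the 27 matched genes of the list, 12.5% of the other 24, 55% of the genes left out by name and 3.03% of the remaining genes.

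Over the 65 genes, the level in Limch1_OE was a median 37.1% of the level in Vector. The median of the group means was 7.36 FPKM in Limch1_OE and 23.7 FPKM in Vector, and the means ran up to 109 FPKM in Limch1_OE (lowest 0.0633) and up to 229 FPKM in Vector (lowest 3.14). The median log2 fold change on the log2(FPKM + 1) scale was -1.25, beside 0.04 over all 11842 genes tested. The ratio had a median of 2.38, and 36 of the 65 genes lay between 2 and 2.5, 18 reached 3 and 7 reached 4. The 101 genes left out by name had a median ratio of 4.2, and 57 of them reached 4. The 31 genes of the interferon-stimulated list had a median log2 fold change of -1.38 and the other 34 one of -1.16. In Limch1_OE 43 of the 65 genes still averaged 3 FPKM or more, and 7 averaged under 1 FPKM.

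The libraries of a group lay close together for most of the genes. The coefficient of variation over 3 libraries had a median of 7.49% in Limch1_OE and 5.21% in Vector, beside 6.03% and 4.66% over the 8875 eligible genes. The lowest Vector library was at least 2 times the highest Limch1_OE library for 47 of the 65 genes, beside 148 of all 8875 eligible genes. The rule largely set this count in advance, so nothing is read from it. The lowest Vector library was less than 1.5 times the highest Limch1_OE library for Rnaset2a and Trex1, which are described with the nucleic acid enzymes. Groups that do not overlap with Limch1_OE lower were found for 2088 of the 8875 eligible genes (23.5%), and nothing is read from the members on this count since the rule required it. Summed over the 65 genes, the level was 989, 1051 and 1025 FPKM in the Limch1_OE libraries and 2741, 2758 and 2844 FPKM in the Vector libraries.

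**Figure D2:**
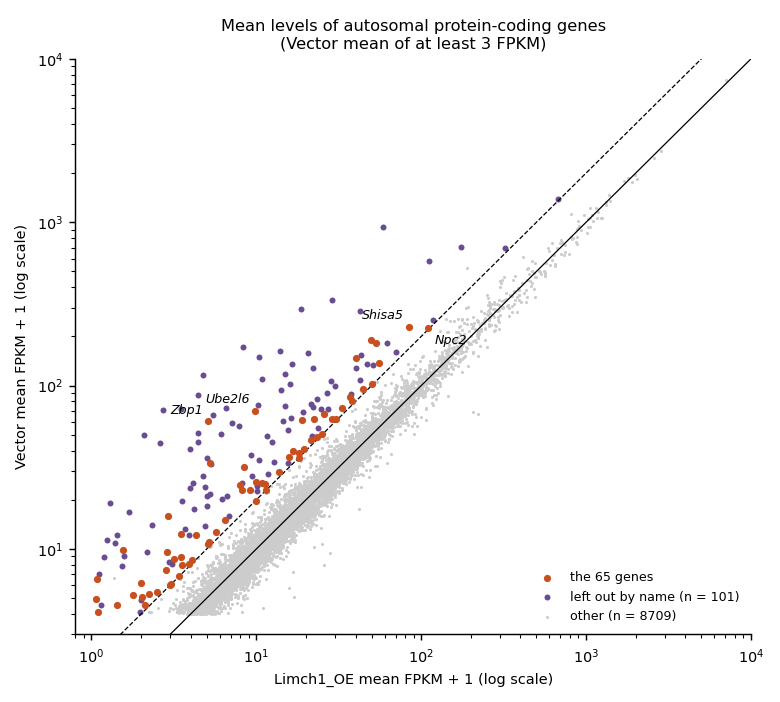
Limch1_OE mean (x axis) against Vector mean (y axis), both FPKM + 1 on log scales, for the 8875 autosomal protein-coding genes at 3 FPKM or more in Vector; the solid line marks equal levels and the dashed line a ratio of 2. The 65 genes lie on or above the dashed line, mostly near it, while the 101 genes left out by name reach farther above it.

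The threshold cuts a continuous range. Just inside it were Fbxw17 with a ratio of 2, Hap1 and Acsf2 with 2.01 each, Serpinb6b with 2.01 and Clec2d with 2.01. Just outside were Chpt1 with 1.99, Mitd1 with 1.99, Sdcbp2 with 1.96, Rnf31 with 1.96 and Taf9 with 1.96. Leaving out any 1 of the 6 libraries gave sets of 62 to 66 genes, of which 59 to 62 were among the 65. A ratio of at least 1.5 in place of 2 would have taken 167 genes and one of at least 4 would have taken 7. Of the genes that reached the ratio but had overlapping groups, Gm10260 was listed at 566, 0 and 0 FPKM in Limch1_OE against 532, 550 and 499 FPKM in Vector, and Gm49380 at 0.99, 0.14 and 0 FPKM in Limch1_OE against 7.65, 0.56 and 8.6 FPKM in Vector.

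As a check of the labels, Limch1 averaged 24.3 ± 1.23 FPKM in Limch1_OE cells and 0.167 ± 0.0764 FPKM in Vector cells (SD, n = 3 each). The epithelial markers Krt8 (308 ± 21.7 FPKM in Limch1_OE cells and 327 ± 15.3 FPKM in Vector cells), Krt18 and Cdh1 were high in both groups. Epcam averaged 78.1 ± 3.34 FPKM in Limch1_OE cells and 107 ± 2.84 FPKM in Vector cells, and Cldn7, one of the genes left out by name, 7.14 ± 1.15 FPKM in Limch1_OE cells and 24.3 ± 0.93 FPKM in Vector cells. Cdh1 averaged 256 ± 6.59 FPKM in Limch1_OE cells and 290 ± 6.52 FPKM in Vector cells. The means of Krt18 (603 ± 40.9 FPKM in Limch1_OE, 545 ± 10.6 FPKM in Vector) and Krt7 (276 ± 17 FPKM in Limch1_OE, 214 ± 13.9 FPKM in Vector) were higher in Limch1_OE. Of other cell types, 8 of 11 listed leukocyte markers, 4 of 7 fibroblast, 8 of 9 endothelial and 5 of 5 adipocyte or muscle markers averaged under 1 FPKM in both. Ptprc, Itgam, Col3a1 and Vwf were at or near 0. The summed leukocyte markers ran between 45.3 and 50.9 FPKM in the Limch1_OE libraries and between 44.1 and 49.6 FPKM in the Vector libraries, mostly from Cd68. The summed fibroblast markers ran between 30.8 and 32.8 FPKM in the Limch1_OE libraries and between 21.99 and 24.1 FPKM in the Vector libraries. In bulk libraries such as these, fewer cells that express a gene and less RNA per cell cannot be told apart. Library totals reached 421767 to 425064 FPKM for Limch1_OE and 414837 to 416242 FPKM for Vector, and the depth is unknown. Mitochondrially encoded transcripts held 8.73%, 6.31% and 6.48% of FPKM in the Limch1_OE libraries and 5.57%, 4.76% and 4.82% in the Vector libraries. Of 9 tested RNA-quality transcripts 6 were higher and 2 lower in Limch1_OE (limma adjusted p under 0.05), and their part in the decreases was not tested.

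The 65 genes included enzymes of each step that attaches ISG15. Ube2l6, the conjugating enzyme for ISG15 (ENSMUSG00000027078, mm10 chr2:84798828-84810335, plus strand), stood at 8.6, 9.21 and 8.66 FPKM in Limch1_OE cells and 71.3, 66.96 and 69.5 FPKM in Vector cells, the second highest ratio of the 65 at 7.15. Uba7, the activating enzyme that works before it, stood at 3.22, 3.39 and 3.39 FPKM in the Limch1_OE libraries and 10.4, 11 and 12 FPKM in the Vector libraries. Herc6, the main ISG15 ligase in mouse, stood at 7.84, 7.38 and 6.87 FPKM in Limch1_OE, against 32.1, 28.9 and 31.9 FPKM in Vector. Of these 3 genes, Ube2l6 had the widest gap. Other genes of this pathway were mixed, as the counts for ubiquitin and ISG15 enzymes given further on show.

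Other ubiquitin genes among the 65 had smaller ratios than Ube2l6. Dtx3l, which pairs with Parp9 in DNA damage and antiviral responses, had 21.6, 22.9 and 19.99 FPKM in Limch1_OE cells and 62.8, 60.02 and 62.5 FPKM in Vector cells. Rnf213, a giant ring-finger ligase that coats intracellular pathogens, had 22.6, 22.2 and 21.8 FPKM in the Limch1_OE libraries and 46.9, 47.5 and 48.1 FPKM in the Vector libraries, with an SD of 0.411 FPKM in Limch1_OE and 0.635 FPKM in Vector. The deubiquitinating enzyme gene Usp17la was at 2.55 ± 0.448 FPKM in Limch1_OE, against 6.95 ± 0.149 FPKM in Vector (mean ± SD, n = 3 each). The F-box gene Fbxw17 was at 8.89 ± 0.563 FPKM in Limch1_OE cells and 18.8 ± 0.699 FPKM in Vector cells. In each of these 4 genes the lowest Vector library was at least 1.96 times the highest Limch1_OE library.

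Zbp1, a sensor of left-handed (Z-form) nucleic acids that can start necroptosis, had the highest ratio of the 65 at 11.9 (ENSMUSG00000027514, mm10 chr2:173206612-173218923, minus strand). Its level was 4.21, 4.58 and 3.48 FPKM in the Limch1_OE libraries and 62.9, 60.4 and 55.3 FPKM in the Vector libraries, so that even the closest libraries of the 2 groups were 12.1-fold apart. The other receptors and kinases that detect double-stranded RNA were less far apart. Tlr3, the endosomal receptor, had 21.2, 18.1 and 15.99 FPKM in Limch1_OE, against 39.1, 38.7 and 41.8 FPKM in Vector, with Limch1_OE replicate 1 the highest of its group. Eif2ak2, the kinase PKR that halts translation, had 15.4, 15.5 and 13.4 FPKM in Limch1_OE cells and 34.6, 32.99 and 38.9 FPKM in Vector cells. Znfx1, a helicase that binds double-stranded RNA, had 8.61, 8.96 and 9.28 FPKM in the Limch1_OE libraries and 25.03, 23.3 and 25.4 FPKM in the Vector libraries. The Limch1_OE mean was 46.3% of the Vector mean for Tlr3, 41.6% for Eif2ak2 and 36.4% for Znfx1.

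The 65 also included genes that edit, unwind or degrade nucleic acids. Adar, which converts adenosine to inosine in double-stranded RNA, had 23.2, 26.5 and 24.4 FPKM in Limch1_OE, against 60.6, 67.2 and 69.8 FPKM in Vector. Mov10, an RNA helicase active against retroelements, had 35.3, 38.3 and 37.9 FPKM in Limch1_OE cells and 80.5, 80.02 and 79.1 FPKM in Vector cells. Isg20, a 3′ exonuclease, had 23.8, 22.9 and 25.2 FPKM in the Limch1_OE libraries and 51.4, 45.03 and 52.7 FPKM in the Vector libraries. The helicase-like coactivator Helz2 and the tudor-domain gene Tdrd7 showed the same separation with tight replicates: Helz2 had 7.3, 6.58 and 6.93 FPKM in Limch1_OE, against 23.5, 23.6 and 23.9 FPKM in Vector, and Tdrd7 had 15.6, 15.6 and 16.1 FPKM in Limch1_OE cells and 38.96, 38.4 and 39.04 FPKM in Vector cells. Trafd1, which restrains innate immune signalling and so acts opposite to the sensors, was also lower, at 16.7, 18.4 and 18.8 FPKM in the Limch1_OE libraries and 59.2, 59.95 and 61.9 FPKM in the Vector libraries.

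Trex1 and Rnaset2a had the narrowest gaps between the groups. Trex1, the main cytosolic DNA exonuclease, had 0.48, 1.2 and 0.68 FPKM in Limch1_OE, against 3.87, 1.7 and 7.18 FPKM in Vector, and Vector replicate 2 lay only 1.42-fold above Limch1_OE replicate 2. Without Vector replicate 3 Trex1 no longer met the rule. Trex1 overlaps Atrip on the same strand, which averaged 10.4 FPKM in Limch1_OE cells and 11.8 FPKM in Vector cells. Rnaset2a, a lysosomal ribonuclease gene with a near-identical copy, had 17.01, 9.93 and 10.98 FPKM in Limch1_OE cells and 20.6, 34.4 and 30.9 FPKM in Vector cells, with Limch1_OE replicate 1 close to Vector replicate 1. It left the set without Limch1_OE replicate 2 or without Vector replicate 2. Isg20 left the set in 3 of the 6 runs with a library left out, as did Acsf2 and Serpinb6b, whose ratios lie just above 2.

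**Figure D3:**
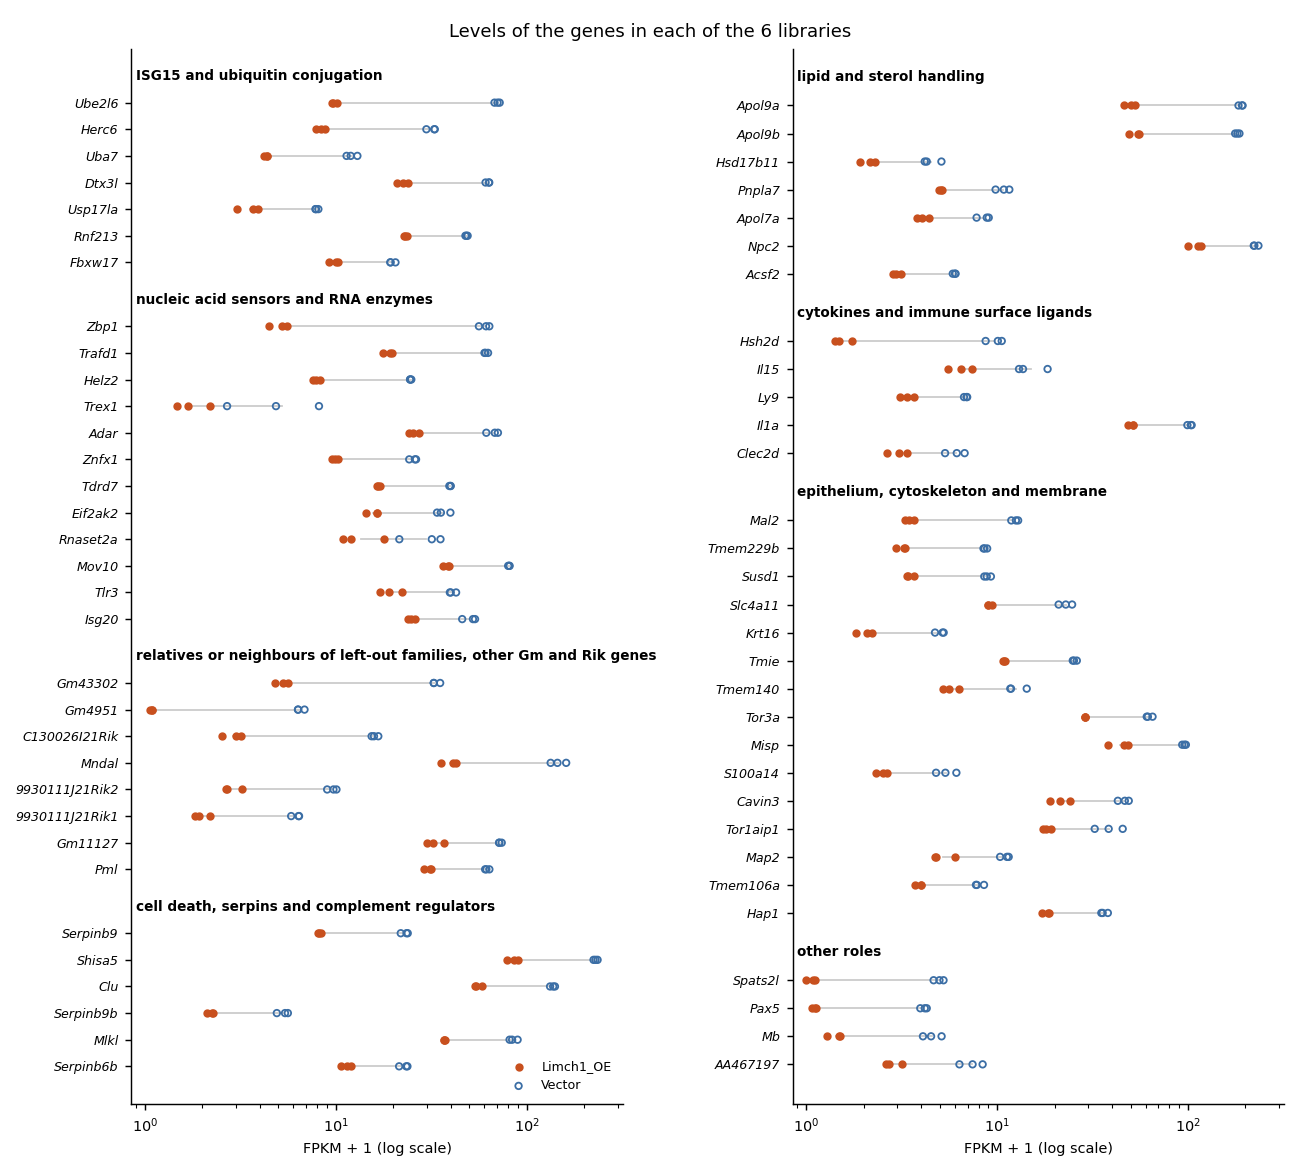
Level of each of the 65 genes but 1 in each library, as FPKM + 1 on a log scale (x axis), by role and, within a role, by decreasing ratio; filled points are Limch1_OE libraries, open points Vector libraries, and the grey line joins the group means. Every filled point lies left of every open point of its gene, by rule, and the closest pairs are those of Rnaset2a and Trex1.

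Some of the 65 genes belong by position or synonym to families that the name filter removed, and they are described here with other genes known only by Gm or Rik names. Gm43302, Gm4951 and C130026I21Rik held ranks 3, 5 and 6 by ratio. Gm43302 (mm10 chr5:105214907-105293695, minus strand) spans the guanylate-binding protein genes Gbp10 and Gbp6 on the same strand, and had 3.82, 4.61 and 4.31 FPKM in the Limch1_OE libraries and 31.7, 31.7 and 34.3 FPKM in the Vector libraries. Gbp10 and Gbp6 themselves averaged 2.56 and 1.33 FPKM in Limch1_OE, against 18.8 and 12.9 FPKM in Vector. Reads can therefore be shared between Gm43302 and the Gbp genes. Gm4951 was close to absent from Limch1_OE, at 0.07, 0.09 and 0.09 FPKM, against 5.35, 5.36 and 5.87 FPKM in Vector. C130026I21Rik, which spans A530032D15Rik on the same strand of chromosome 1, had 1.55, 1.99 and 2.21 FPKM in Limch1_OE, against 15.7, 14.4 and 14.9 FPKM in Vector.

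Mndal, a member of the PYHIN family of interferon-inducible nuclear proteins that overlaps Ifi211 and Ifi203 on the same strand, was the most abundant of these genes. It had 34.5, 41.95 and 40.4 FPKM in Limch1_OE cells and 133, 144 and 160 FPKM in Vector cells. The neighbours 9930111J21Rik2 and 9930111J21Rik1 on chromosome 11, next to Tgtp1, Tgtp2 and Ifi47, had similar ratios. 9930111J21Rik2 had 2.25, 1.66 and 1.7 FPKM in the Limch1_OE libraries and 9.1, 8.74 and 8.03 FPKM in the Vector libraries, and 9930111J21Rik1 had 1.2, 0.84 and 0.92 FPKM in Limch1_OE, against 5.4, 5.43 and 4.85 FPKM in Vector. Gm11127, which lies within 100 kb of H2-T22, H2-T23 and H2-T24, had 29.1, 31.3 and 36 FPKM in Limch1_OE cells and 70.8, 71 and 73.1 FPKM in Vector cells. Pml, which builds the nuclear bodies named after it, had 28.1, 30.7 and 30.1 FPKM in the Limch1_OE libraries and 60.6, 62.9 and 59.7 FPKM in the Vector libraries. Genes with near-identical or overlapping copies are reported as uncertain, because how reads matching several places were handled is not stated in the labels.

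The 65 held both effectors of cell death and inhibitors of it. Mlkl, which perforates the membrane at the end of necroptosis downstream of Zbp1 and Ripk3, had 35.99, 36.1 and 36.3 FPKM in Limch1_OE, against 83.1, 80.5 and 88.8 FPKM in Vector, and the Limch1_OE libraries agreed within 1 FPKM. Shisa5, a membrane protein of the endoplasmic reticulum linked to apoptosis, was the gene of the 65 with the highest Vector mean, at 77.7, 88.8 and 85.2 FPKM in Limch1_OE cells and 223, 235 and 229 FPKM in Vector cells. Serpinb9, which inhibits granzyme B and so protects a cell from cytotoxic lymphocytes, had 7.38, 7.11 and 7.21 FPKM in the Limch1_OE libraries and 22.9, 20.9 and 22.5 FPKM in the Vector libraries. Its cluster neighbours on chromosome 13 were lower as well. Serpinb9b had 1.12, 1.29 and 1.25 FPKM in Limch1_OE, against 4.62, 3.92 and 4.43 FPKM in Vector, and Serpinb6b had 11.1, 10.5 and 9.68 FPKM in Limch1_OE cells and 22.4, 22.8 and 20.5 FPKM in Vector cells. The secreted protein gene Clu, an extracellular chaperone that restrains complement, stood at 52.6, 57.4 and 53.1 FPKM in the Limch1_OE libraries and 137, 140 and 132 FPKM in the Vector libraries.

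Among lipid handlers Apol9a and Apol9b had the highest ratios. Apol9a and Apol9b, near-identical copies on chromosome 15 that share the promoter window shown above, had 45.4, 49.4 and 51.6 FPKM and 48.3, 54.5 and 53.7 FPKM in Limch1_OE, against 183, 191 and 192 FPKM and 176, 180 and 185 FPKM in Vector. Reads that match both copies could be divided between them in an unknown way, so each value is uncertain. Apol7a, in the same cluster, was far lower in level, with a ratio of 2.1, and had 3.06, 3.38 and 2.8 FPKM in Limch1_OE, against 8.04, 6.81 and 7.83 FPKM in Vector. Npc2, the carrier that moves cholesterol out of lysosomes, was abundant in both groups, with 99.5, 115 and 112 FPKM in Limch1_OE cells and 222, 220 and 233 FPKM in Vector cells. The lysophospholipase gene Pnpla7 averaged 4.07 ± 0.0902 FPKM in the Limch1_OE libraries and 9.75 ± 0.889 FPKM in the Vector libraries, the acyl-CoA synthetase Acsf2 1.98 ± 0.147 FPKM in Limch1_OE, against 4.98 ± 0.106 FPKM in Vector, and the lipid-droplet dehydrogenase Hsd17b11 1.12 ± 0.192 FPKM in Limch1_OE cells and 3.52 ± 0.511 FPKM in Vector cells.

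The ligands seen by immune cells were few. Il15, which sustains natural killer and memory T cells, had 5.44, 6.43 and 4.52 FPKM in the Limch1_OE libraries and 12.03, 12.7 and 17.4 FPKM in the Vector libraries, with Vector replicate 3 the highest of all. Il1a, an alarmin released by damaged epithelium, was the more abundant of the cytokines at 50.3, 47.4 and 50.5 FPKM in Limch1_OE, against 103, 98.3 and 104 FPKM in Vector. Clec2d, a ligand of inhibitory receptors on natural killer cells, had 1.65, 2.36 and 2.06 FPKM in Limch1_OE cells and 4.34, 5.15 and 5.76 FPKM in Vector cells. Ly9, a receptor of the SLAM family, had 2.67, 2.09 and 2.37 FPKM in the Limch1_OE libraries and 5.97, 5.71 and 5.92 FPKM in the Vector libraries. Hsh2d, an SH2-domain adaptor best known from lymphocytes, was grouped with this role although it is neither a cytokine nor a surface ligand. It was the one gene of the role with a ratio above 4, at 0.49, 0.74 and 0.41 FPKM in Limch1_OE, against 9.58, 7.71 and 9.09 FPKM in Vector.

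**Figure D4:**
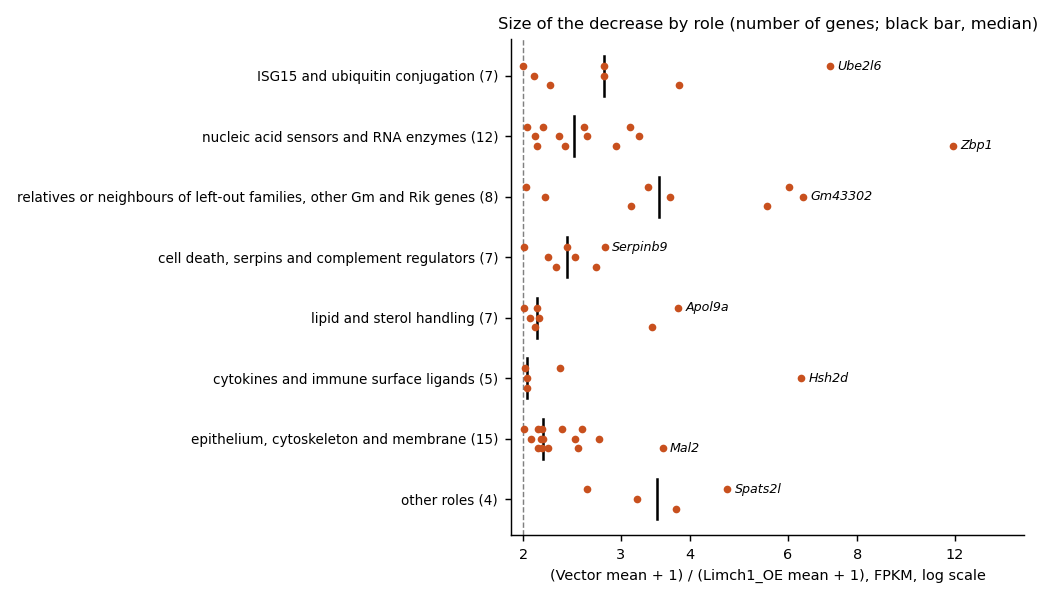
Ratio (Vector mean + 1)/(Limch1_OE mean + 1) of each gene (x axis, log scale) by role (y axis, number of genes in brackets); the black bar is the median and the dashed line the threshold of 2. The median ratio was 3.51 for the relatives or neighbours of left-out families with the other Gm and Rik genes, and 3.485 for the other roles. It was 2.79 for ISG15 and ubiquitin conjugation, and 2.47 for nucleic acid sensors and RNA enzymes. For cell death, serpins and complement regulators it was 2.398, and for epithelium, cytoskeleton and membrane 2.167. It was 2.12 for lipid and sterol handling, and 2.03 for cytokines and immune surface ligands.

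Of the 15 genes of epithelium, cytoskeleton and membranes, 4 are in the interferon-stimulated list, namely Tmem140, Tor3a, Tor1aip1 and Tmem106a, and the other 11 are not. Mal2, a raft protein of apical transport in epithelial cells, led this role with 2.68, 2.46 and 2.31 FPKM in Limch1_OE cells and 11.6, 10.9 and 11.9 FPKM in Vector cells. Misp, an actin-binding protein that orients the mitotic spindle, was the most abundant, with 37.03, 44.98 and 47.4 FPKM in the Limch1_OE libraries and 94.9, 92.3 and 96.5 FPKM in the Vector libraries. S100a14, a calcium-binding protein of epithelia, had 1.54, 1.66 and 1.33 FPKM in Limch1_OE, against 4.36, 5.12 and 3.79 FPKM in Vector. Krt16, a keratin of stressed epidermis that lies within 100 kb of Hap1, had 0.83, 1.07 and 1.21 FPKM in Limch1_OE cells and 4.25, 4.18 and 3.73 FPKM in Vector cells. Cavin3, a coat protein of caveolae, had 23.1, 20.3 and 17.95 FPKM in the Limch1_OE libraries and 41.9, 47.95 and 45.7 FPKM in the Vector libraries.

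Membrane genes of less settled function in these cells followed. Tmem229b had 1.94, 2.26 and 2.29 FPKM in Limch1_OE, against 7.49, 7.87 and 7.59 FPKM in Vector. Tor3a, a torsin of the endoplasmic reticulum, had 27.7, 27.95 and 27.95 FPKM in Limch1_OE cells and 64.2, 59.8 and 60.7 FPKM in Vector cells, while Tor1aip1, which activates torsins at the nuclear envelope, varied more, with 17.04, 18.3 and 16.4 FPKM in the Limch1_OE libraries and 37.4, 31.5 and 44.5 FPKM in the Vector libraries. Tmem140 had 4.57, 5.29 and 4.2 FPKM in Limch1_OE, against 10.7, 10.8 and 13.3 FPKM in Vector, and Tmem106a had 3, 3 and 2.7 FPKM in Limch1_OE cells and 6.83, 6.75 and 7.54 FPKM in Vector cells. The remaining genes of this role, Susd1, Slc4a11, Tmie, Map2 and Hap1, had ratios between 2.01 and 2.55. Tmie and Hap1 are best known from the inner ear and from neurons, Map2 is a microtubule protein of dendrites, and Slc4a11 is a membrane transporter of the corneal endothelium.

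Of the last 4 genes, Pax5 and Mb are best known from other cell types. Pax5, the transcription factor that fixes B-cell identity, was close to absent from Limch1_OE at 0.07, 0.11 and 0.12 FPKM, against 3.18, 2.96 and 3.28 FPKM in Vector. The leukocyte genes Ptprc and Itgam were at or near 0 in both groups. Mb, the muscle oxygen carrier myoglobin, had 0.51, 0.48 and 0.29 FPKM in the Limch1_OE libraries and 4.12, 3.51 and 3.09 FPKM in the Vector libraries. Mb overlaps Apol6 on the opposite strand, which averaged 0.0367 FPKM in Limch1_OE and 0.15 FPKM in Vector. Since the use of strand in counting is not given in the sources used here, reads of the 2 genes may not be told apart. Spats2l had 0.11, 0.08 and 0 FPKM in Limch1_OE, against 3.99, 3.65 and 4.24 FPKM in Vector, and AA467197 had 1.63, 2.16 and 1.72 FPKM in Limch1_OE cells and 7.4, 5.35 and 6.44 FPKM in Vector cells.

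The values per transcript show how a gene's difference was spread over its transcripts. The 65 genes had 320 listed transcripts, of which 145 averaged at least 1 FPKM in Vector. Of these 145, 110 were lower in Limch1_OE with no overlap between the groups, 35 had overlapping groups and 0 were higher without overlap. Since the rule required gene sums that were lower without overlap, these counts were largely set in advance. No share over all listed transcripts is given beside them, so nothing is read from their direction. The transcript with the highest Vector mean was annotated as protein-coding for 59 of the 65 genes, and had a ratio of at least 2 for 52. One transcript with at least 1 FPKM in Limch1_OE was higher there without overlap, Rnaset2a-202, at 1.36, 0.57 and 1.96 FPKM in Limch1_OE and 0 FPKM in each Vector library.

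In Shisa5 most of the difference lay in Shisa5-213 and Shisa5-203. Shisa5-203 begins 3 bases from the internal start whose promoter holds the response element core, and had 17.9, 28.7 and 19.5 FPKM in Limch1_OE, against 68.6, 80.7 and 85.9 FPKM in Vector. The retained-intron transcript Shisa5-213, which begins 16264 bases upstream of that start, had 6.13, 5.48 and 8.37 FPKM in Limch1_OE, against 83.2, 80.9 and 75.3 FPKM in Vector. Shisa5-201 and Shisa5-202, which begin 16281 and 16301 bases upstream of it, had overlapping groups, with means of 26.7 and 27.3 FPKM in Limch1_OE cells and 34.2 and 33.8 FPKM in Vector cells. The minor transcript Shisa5-217 was also lower without overlap, with means of 0.19 FPKM in Limch1_OE and 1.84 FPKM in Vector. In Pml the leading transcript was Pml-207, at 18.8, 16.3 and 12.02 FPKM in Limch1_OE against 52.9, 54.9 and 48.3 FPKM in Vector, while Pml-201 and Pml-202 had overlapping groups. Pml-205 had 0.14, 8.91 and 6.66 FPKM in Limch1_OE, against 0.99, 0.9 and 0.7 FPKM in Vector, so that it was higher in 2 of the 3 Limch1_OE libraries. In Spats2l the leading transcript Spats2l-211 was at 0 in all 3 Limch1_OE libraries and at 2.27, 2.7 and 3.46 FPKM in the Vector libraries.

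**Figure D5:**
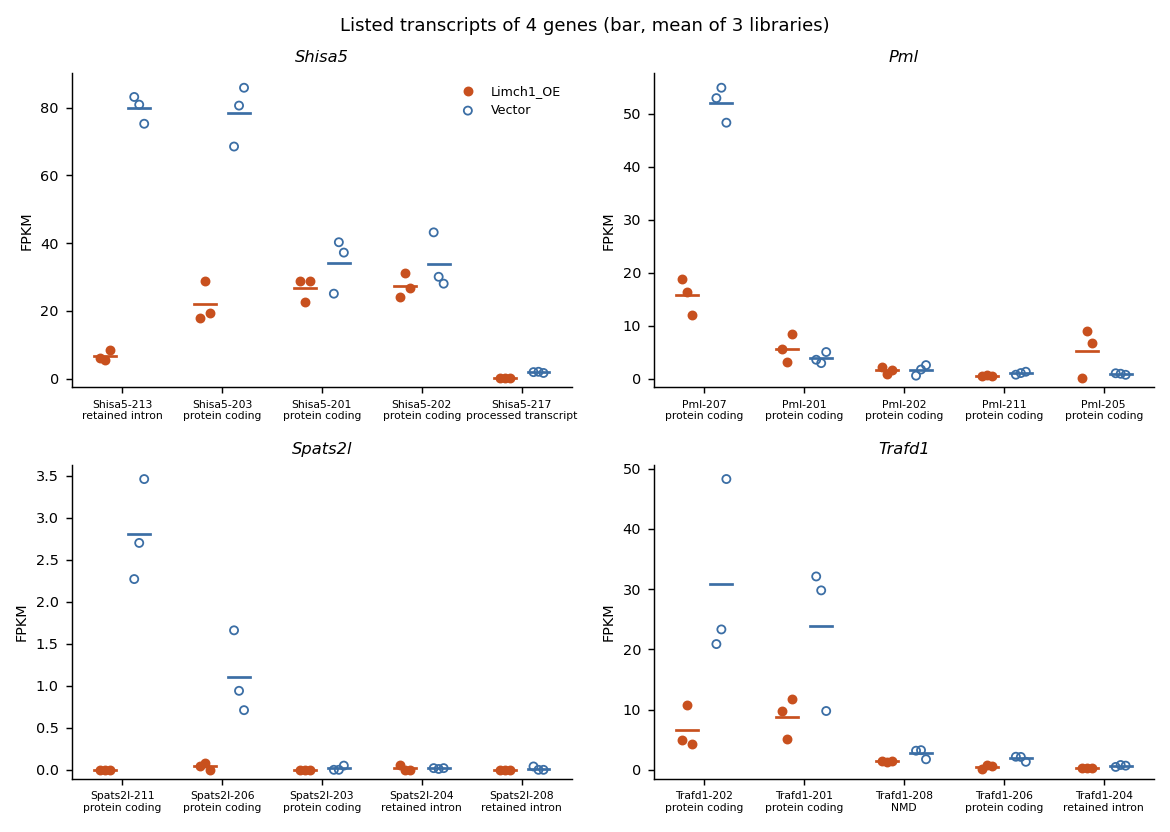
FPKM (y axis) of the 5 listed transcripts with the highest Vector mean (x axis) of Shisa5, Pml, Spats2l and Trafd1; filled points are Limch1_OE libraries, open points to their right Vector libraries, and bars are means of 3 libraries (NMD, nonsense-mediated decay). Shisa5-213, Shisa5-203 and Pml-207 separate the groups, Shisa5-201 and Shisa5-202 do not, and Trafd1-202 and Trafd1-201 trade places between Vector libraries.

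For other genes the transcript values were less stable than their sum. Tor1aip1-210 was listed at 0, 12.1 and 0 FPKM in Limch1_OE and at 23.2, 0 and 11.4 FPKM in Vector, and Tor1aip1-202 at 15.4, 0 and 14.6 FPKM in Limch1_OE and at 0, 27.9 and 0 FPKM in Vector, so the 2 transcripts took turns from library to library. Serpinb9-202 was listed at 16.4 FPKM in Vector replicate 1 and at 0 in the other 5 libraries. Adar-202 had 19.3, 13.9 and 19 FPKM in the Limch1_OE libraries and 44.8, 16.03 and 25.3 FPKM in the Vector libraries. When each gene was represented by its most abundant transcript alone, 69 genes met the rule and 49 of them were among the 65. The log2 fold change of Tor1aip1 was then 1.05, the opposite direction to its sum. Statements on single transcripts of these genes therefore rest on less than statements on the genes.

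Several of the genes lie next to each other. Another of the 65 was within 100 kb for 11 of them (16.9%), and one of the 65 was within 100 kb for 135 of 8709 other eligible genes (1.55%). The groups were Apol9a with Apol7a, 9930111J21Rik1 with 9930111J21Rik2, Trex1 with Shisa5, Krt16 with Hap1, and Serpinb9 with Serpinb9b and Serpinb6b. A gene left out by name was within 100 kb for 6 of the 65 (9.23%) and for 180 of the 8709 others (2.07%), and the 6 were Gm43302, Mndal, both 9930111J21Rik genes, Dtx3l beside Parp9 and Parp14, and Gm11127. Overlap with another protein-coding gene was found for 17 of the 65, of which 4 overlapped a gene left out by name. No share over other eligible genes is given beside these overlap counts, so nothing is read from them. The leading transcript of the 65 had a median length of 2656 bases and 7 exons, beside 2982 bases and 9 exons over the 8875 eligible genes.

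Genes of the same pathways that did not meet the rule were tested with limma on log2(FPKM + 1) over all 11842 genes at 1 FPKM or more in at least 3 libraries, with Benjamini-Hochberg adjustment and a threshold of 0.05. Across all tested genes, 1706 were lower (14.4%) and 2388 higher (20.2%) in Limch1_OE, and with each gene represented by its most abundant transcript these were 999 and 997. With the trimmed mean of M values scaling the balance turned, with 2087 lower and 1855 higher. The lists were written with earlier results of these data known and are no independent evidence of direction. Of the 77 other tested genes of the interferon-stimulated list, 45 fell and 4 rose, and their median log2 fold change was -0.30. Among the falling genes the largest changes were those of Gm12250, at 0.32 ± 0.0529 FPKM in Limch1_OE cells and 5.2 ± 1.15 FPKM in Vector cells (limma log2 fold change -2.21, SE 0.14, adjusted p = 7.01e-06), F830016B08Rik (-1.49, SE 0.14, limma adjusted p = 8.93e-05), Rnf31 (-0.97, SE 0.06, limma adjusted p = 7.69e-06) and Rnf114 (-0.96, SE 0.06, limma adjusted p = 8.01e-06). Rising genes of this list included the complement protease C1s1, at 3.62 ± 0.293 FPKM in Limch1_OE cells and 1.1 ± 0.1 FPKM in Vector cells (log2 fold change 1.13, limma adjusted p = 3.97e-05), and the monocyte chemokine Ccl2 (log2 fold change 1.12, limma adjusted p = 8.44e-05).

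The narrower lists were mixed. Among all tested genes 14.4% were lower and 20.2% higher, and several counts of rising genes in these lists lie near that share. Of 22 other ubiquitin and ISG15 enzymes 8 fell and 4 rose, and the falling genes included Rnf135, a ligase that helps activate RIG-I, at 4.95 ± 0.557 FPKM in Limch1_OE cells and 10.1 ± 0.51 FPKM in Vector cells (limma adjusted p = 9.59e-05). Under trimmed mean of M values scaling 8 fell and 2 rose. Without Vector replicate 1 these counts were 5 and 2, and without Limch1_OE replicate 2, Vector replicate 2 or Vector replicate 3 the rising genes were also 2. Of 23 other nucleic acid sensors and RNA enzymes 10 fell and 1 rose: Pnpt1, a mitochondrial exoribonuclease, had 17.2 ± 2.53 FPKM in Limch1_OE cells and 30.9 ± 1.61 FPKM in Vector cells (limma adjusted p = 0.000354), Zc3hav1, the zinc-finger antiviral protein, had 50.6 ± 0.387 FPKM in Limch1_OE cells and 80 ± 2.28 FPKM in Vector cells (limma adjusted p = 9.49e-06), and the adaptor Tank rose (log2 fold change 0.43, limma adjusted p = 0.00268). Of 26 other cell death genes 10 fell, among them the necroptosis kinase Ripk1 (log2 fold change -0.61, limma adjusted p = 0.000567) and the pore-forming Gsdmd (-0.61, limma adjusted p = 0.000469), and 5 rose, among them the death receptor Fas (0.73, limma adjusted p = 7.46e-05).

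Of 39 other cytokines and growth factors 15 fell and 8 rose. The chemokine Ccl5 had 17.7 ± 1.2 FPKM in Limch1_OE cells and 33.4 ± 5.07 FPKM in Vector cells (log2 fold change -0.87, limma adjusted p = 0.000317), and the granulocyte factor Csf3 had 59.3 ± 3.02 FPKM in Limch1_OE cells and 100 ± 4.7 FPKM in Vector cells (-0.75, limma adjusted p = 2.04e-05). Of 80 other epithelial genes 30 fell and 7 rose, and the falling genes included Bspry, at 0.573 ± 0.14 FPKM in Limch1_OE cells and 2.91 ± 0.11 FPKM in Vector cells (log2 fold change -1.32, limma adjusted p = 2.78e-05), and Klf4, an epithelial transcription factor (-0.60, limma adjusted p = 0.000581). Of 36 other lipid genes 7 fell and 7 rose, near the shares of all tested genes, so nothing is read from these counts. With the trimmed mean of M values scaling 8 fell and 4 rose. The rising genes included the prostaglandin synthase Ptgs1, at 6.56 ± 0.493 FPKM in Limch1_OE cells and 2.32 ± 0.111 FPKM in Vector cells (log2 fold change 1.19, limma adjusted p = 1.09e-05), and the count of rising lipid genes was 3 without Vector replicate 1 and 4 without Vector replicate 2.

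The lists of complement genes, receptors and ERK feedback genes held 0 of the 65. Of 37 tested ERK feedback and immediate-early genes 18 fell and 4 rose, and the falling genes included Dusp6, a phosphatase that switches ERK off, at 10.5 ± 0.477 FPKM in Limch1_OE cells and 21.1 ± 0.746 FPKM in Vector cells (log2 fold change -0.94, limma adjusted p = 5.22e-06). Of 11 tested complement and acute phase genes 1 fell and 5 rose, and the rising genes included the copper carrier ceruloplasmin, Cp, at 16 ± 1.31 FPKM in Limch1_OE cells and 4.09 ± 0.229 FPKM in Vector cells (log2 fold change 1.74, limma adjusted p = 4.44e-07). Of 47 tested receptors of cytokines and growth factors 13 fell and 14 rose, or 13 and 9 with the trimmed mean of M values scaling, and 9 rose without Vector replicate 2 or without Vector replicate 3. The rising receptors included Ifnar2, a subunit of the type I interferon receptor, at 39.9 ± 3.63 FPKM in Limch1_OE cells and 23.1 ± 1.38 FPKM in Vector cells (log2 fold change 0.76, limma adjusted p = 0.000117).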

How the data were processed

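RNA-seq values of 6 libraries were analysed, 3 Limch1_OE and 3 Vector, grouped by the sample titles. The authors deposited FPKM values per transcript, with no counts, so the sequencing depth and the counting error are unknown and precision is given as the SD over 3 libraries. Per the submitters' processing notes the tools were STAR 2.7.10, StringTie 2.2.1, featureCounts 2.0.1 and fastp 0.23.2 with the build mm10, and their roles are not stated there. The annotation release, the use of strand and the handling of reads that match several places were not given in the sources used here, and a transcript estimate can move between libraries even where the gene's sum does not.

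The planned test needed values per gene, so the 77865 listed transcripts were summed to 26094 genes, of which 26033 matched GENCODE M21 for symbols and coordinates. The contrast was tested with limma 3.58.1 in R 4.3.3 (lmFit, eBayes with trend) on log2(FPKM + 1) as a two-sided test of Limch1_OE minus Vector, over genes that reached 1 FPKM in 3 or more libraries, adjusted by Benjamini-Hochberg, and the script was tested on simulated data. Fold changes on this scale understate the change of low genes.

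The 65 genes, the 15 gene lists and the motifs were chosen with earlier results of these data known, and the grouping by role was made after the values were seen. The values of 1 of the 65 genes are not reported here. Values in each library were given for the 25 genes with the highest ratio and for up to 4 genes of each list or symbol family by Vector mean, with further genes added for their role. Other genes were named from each list by the largest absolute log2 fold change past the threshold, up to 4 in each direction. From the interferon-stimulated and epithelial lists, genes with left-out names were not counted. Alternatives were a pseudocount of 0.1, other filters, scaling by a trimmed mean of M values (an unweighted version computed directly, in place of the planned edgeR function, which was not applied to FPKM), quantile normalization, the most abundant transcript, each library left out and the replicate number as a block.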

Additional observations from a re-analysis of the deposited data

How the results depend on the processing

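The 65 genes kept their direction under every alternative run except Tor1aip1, whose log2 fold change was 1.05 when only the most abundant transcript was used. Of 715 recomputed fold changes of the 65 genes, 641 moved by less than the replicate SD, 73 moved by more in the same direction and 1 reversed. The larger moves lay mostly in 2 settings, with 38 of the 65 genes for the pseudocount of 0.1 and 27 for the most abundant transcript. With each library left out, and with no filter on low values, all 65 moved by less than the replicate SD. The rule gave 79 genes with a pseudocount of 0.1, 73 with a Vector mean of at least 1 FPKM, 72 with the trimmed mean of M values scaling, 67 with no requirement on overlap and 69 with the most abundant transcript, of which 49 were among the 65. It gave 167 genes with a ratio of at least 1.5 and 7 with a ratio of at least 4. Leaving out each library gave 62 to 66 genes. The genes lost were Acsf2, Clec2d, Npc2 and Pml without Limch1_OE replicate 1; Acsf2, Il1a, Isg20, Ly9 and Rnaset2a without Limch1_OE replicate 2; Fbxw17, Hap1, Serpinb6b and Tlr3 without Limch1_OE replicate 3; Fbxw17, Isg20 and Serpinb6b without Vector replicate 1; Acsf2, Hsd17b11, Pml, Rnaset2a and Serpinb6b without Vector replicate 2; and Clec2d, Hap1, Isg20, Tmem106a, Tor1aip1 and Trex1 without Vector replicate 3.

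Over the whole table limma called 999 genes lower and 997 higher with the most abundant transcript, against 1706 and 2388 with the sum, and 1285 to 1553 lower and 1597 to 2225 higher with a library left out. With the trimmed mean of M values scaling it called 2087 lower and 1855 higher, so that the larger share turned from higher to lower. With the most abundant transcript, 29 other genes of the interferon-stimulated list were lower. In that setting 4 ubiquitin genes were lower and 0 higher, 6 nucleic acid genes lower and 0 higher, 3 cell death genes higher, 2 epithelial genes higher, 4 lipid genes lower and 3 higher, 7 receptors lower and 8 higher, and 2 ERK feedback genes higher. With no filter on low values, 5 ubiquitin genes were lower and 2 higher, 3 cell death genes higher and 4 lipid genes higher. With the trimmed mean of M values scaling, 2 ubiquitin genes, 4 lipid genes and 9 receptors were higher. With a library left out, 5 to 7 ubiquitin genes were lower and 2 to 5 higher, 3 to 5 lipid genes were higher and 9 to 11 receptors were higher. The cause of these shifts was not tested. The median log2 fold change of all genes was 0.039, and 0.001 with the trimmed mean of M values scaling.

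Same-numbered libraries deviated together with correlations of -0.002, 0.046 and 0.059, so the numbers were not taken to pair the libraries. With the replicate number as a block, limma called 1589 genes lower and 2219 higher, 45 other interferon-stimulated genes lower and 4 higher. Depth is unknown, so the limit it sets on low genes such as Pax5 and Spats2l cannot be given.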
